A study of Mus musculus with 6 samples.

Results

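The genes described here mark the oligodendrocyte lineage, the glial cells that wrap axons of the central nervous system in myelin. The set holds 29 listed genes: 9 of progenitors, 3 of newly formed oligodendrocytes and 17 of myelinating cells. They were chosen by name, with earlier results of these data known. A gene counted as measured if at least 1 probe set of the array was annotated to its symbol alone. By that rule 28 of the 29 genes were measured, out of 18193 genes named on the array, by 65 probe sets. The gene not described is Trf, which encodes transferrin and whose probe set is annotated to more than 1 gene.

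The samples were cortex of mice at postnatal day 29, 3 of HtrA2 wild type (WT) and 3 of HtrA2 knockout (KO) littermates, with 1 array each. HtrA2 is a mitochondrial protease of the serine type, and no other allele or treatment is named for either group. The labels give neither strain, sex nor knockout allele, and not the number of animals behind each array. P-values therefore measure the spread between these samples, which may be partly technical. By the level of Y-linked genes, given below, each group held both sexes. The submitters chose cortex because they saw no neuron loss there, and the series asks which transcripts differ between the genotypes.

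Oligodendrocytes arise from dividing progenitors that carry the PDGF receptor alpha and the transcription factors Olig1, Olig2 and Sox10. Cells that leave the cycle pass through a brief stage marked by Gpr17, then switch on Myrf, myelin proteins and the enzymes of myelin lipids. In mouse cortex this maturation is under way in the weeks after birth, and myelin continues to be added into adulthood.

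The knocked-out gene was checked first. One Htra2 probe set was at 8.89, 8.86 and 9.02 in WT replicates 1, 2 and 3 and at 6.42, 7.08 and 6.45 in KO replicates 1, 2 and 3. It fell by 2.27 ± 0.17 on the log2 scale (adjusted p = 0.00227), in the direction of the labels. A second Htra2 probe set rose by 1.11 ± 0.08 (adjusted p = 0.00169). The sources used here do not say which part of the gene is deleted or where either probe set lies relative to it. KO replicate 2 stood apart from the other arrays: the interquartile range of its values was 3.64 log2 units, against 3.80 to 3.89 on the other 5 arrays, and its Htra2 level was the highest of the KO arrays. Where leaving it out moved a member's difference by more than 1.5 times, turned its sign or changed its call, the value without it is given below.

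Levels are RMA values on the log2 scale. A difference is KO minus WT on that scale, ± gives its standard error, and n = 3 arrays in each group throughout. A gene is represented by its probe set with the highest mean over the 6 arrays unless another is named, and it passed the test at an adjusted p under 0.05 in limma, with adjustment over all 45037 probe sets. In tissue RNA, fewer oligodendrocytes and less RNA per oligodendrocyte cannot be told apart.

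Lineage genes were mostly lower in knockout cortex, by small amounts. Of the 28 measured members 25 had a negative difference, but only 3 passed the test: Olig2, Gpr17 and Ugt8a, 1 from each stage, and all 3 fell. Among all named genes 1.05% passed as lower and 1.39% as higher. No member passed as higher in limma, and none did so at an unadjusted p under 0.05. The median difference was -0.24 over the members and 0.02 over all named genes. A negative difference was found at 45.1% of all named genes.

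The KO arrays lay below every WT array at 13 of the 28 members, 3 of progenitors, 2 of newly formed cells and 8 of myelinating cells, and above them at 1, Bmp4. Over all named genes 12.8% lay below and 15.6% above. All 28 members had probe sets brighter than the median of all probe sets, and of the 11920 named genes above that level 16.6% lay below and 46.5% had a negative difference. Of those 11920 genes 175 passed the test as lower and 239 as higher. The dot plot of differences shows the members by stage.

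**Figure D1:**
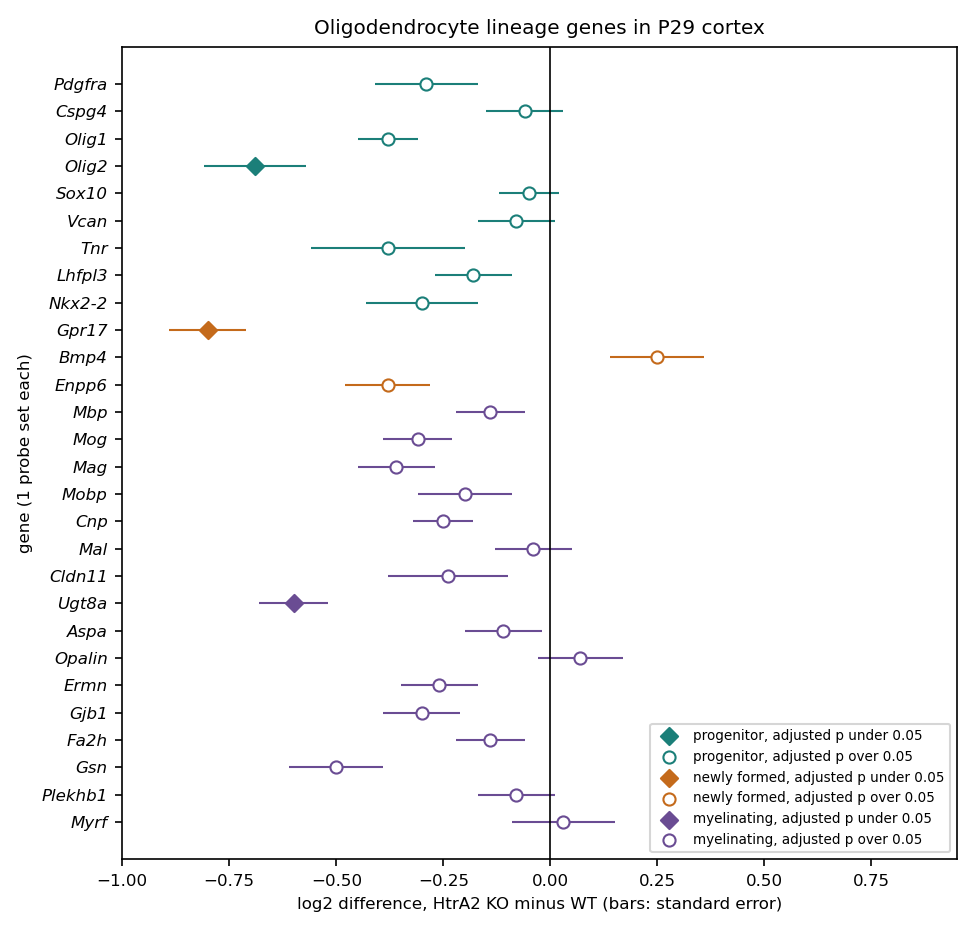
Difference between KO and WT on the log2 scale for the 28 measured members, 1 probe set per gene, with bars of 1 standard error (n = 3 arrays per group). Filled diamonds mark Olig2 at -0.69, Gpr17 at -0.80 and Ugt8a at -0.60, which passed the test, and 25 of the 28 points lie left of 0.

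Start-site regions are shown for the called genes Olig2 and Ugt8a. Whether the called genes share a regulator was not tested. The RefSeq windows run from 250 bases before to 50 after a transcription start (GRCm38.p6). They lie at chr16:91225300-91225599 on the plus strand for Olig2 and at chr3:125938603-125938902 on the minus strand for Ugt8a. No window of Gpr17, the other called gene, was used here. Capitals mark matches to the E-box CANNTG, the pattern bound by Olig and other bHLH factors, or to ACAATG or ACAAAG, patterns bound by Sox factors, on either strand. The runs read 5′ to 3′ on the strand of the gene.
Olig2: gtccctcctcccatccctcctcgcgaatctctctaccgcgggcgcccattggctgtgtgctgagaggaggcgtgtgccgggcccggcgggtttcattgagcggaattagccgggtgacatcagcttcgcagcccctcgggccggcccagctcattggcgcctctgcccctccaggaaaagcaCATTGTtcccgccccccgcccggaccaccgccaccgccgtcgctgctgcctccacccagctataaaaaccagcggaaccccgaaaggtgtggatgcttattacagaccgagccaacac
Ugt8a: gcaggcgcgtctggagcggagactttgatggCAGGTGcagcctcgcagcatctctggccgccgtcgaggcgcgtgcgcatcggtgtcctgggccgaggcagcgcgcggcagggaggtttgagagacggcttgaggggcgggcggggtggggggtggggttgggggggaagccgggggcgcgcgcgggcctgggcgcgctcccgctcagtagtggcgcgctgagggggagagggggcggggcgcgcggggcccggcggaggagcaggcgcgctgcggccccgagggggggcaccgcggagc
The Olig2 window held 1 match, to ACAATG on the opposite strand, starting 68 bases before the start site, and no E-box. The Ugt8a window held 1 E-box, CAGGTG, which starts 219 bases before the start site, and no match to ACAATG or ACAAAG. Windows were found for 22 measured members. Of these genes 13 held an E-box in at least 1 of their windows, 4 ACAATG and 7 ACAAAG. An E-box was found in 72.3% of all 32851 RefSeq windows, ACAATG in 12.6% and ACAAAG in 18.7%. These shares are per window and the member counts per gene, which may have more than 1 window, so they cannot be compared directly. The windows were rich in G and C, at 65.0% for Olig2 and 78.3% for Ugt8a, against a median of 52.7%. A match describes the letters only.

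Among the 9 progenitor genes the difference was negative at all 9, with a median of -0.29, and 1 passed the test. Olig2, a bHLH factor needed to specify the lineage, was at 8.92, 9.11 and 9.10 in WT replicates 1, 2 and 3 and at 8.60, 8.18 and 8.28 in KO replicates 1, 2 and 3. Every KO array was below every WT array, by a gap of 0.32. Olig2 fell by 0.69 ± 0.12, a 1.61-fold lower level (adjusted p = 0.0359). The call was lost without WT replicates 1, 2 or 3 (adjusted p = 0.126, 0.188 and 0.118) or KO replicate 3 (0.136), and it was kept without KO replicate 1 or 2 (0.0292 and 0.0285). With the level of Y-linked genes as a covariate the adjusted p was 0.0522. These genes were near background in WT replicate 1 and KO replicate 3, at means of 4.03 and 4.02 log2, against 7.73 to 7.96 on the other arrays. By these genes each group held 1 array with no clear male RNA, while the other arrays held male RNA.

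Olig1, the paralogue of Olig2 that acts in maturation and repair, fell just short of the threshold. Its level was 12.02, 11.98 and 11.86 in WT replicates 1, 2 and 3 and 11.58, 11.57 and 11.56 in the KO replicates. The 3 KO arrays were nearly equal and all lay below WT. The difference was -0.38 ± 0.07 (adjusted p = 0.0501), and Olig1 passed in several alternative fits, among them without KO replicate 2 (adjusted p = 0.0331). It did not pass when any other single array was left out (adjusted p from 0.0938 to 0.252). Nor did it pass with replicate number as a block (0.139) or with the Y-linked covariate (0.0856).

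Tnr encodes tenascin-R, a matrix glycoprotein made by progenitors, oligodendrocytes and some neurons. It was at 8.89, 9.07 and 8.99 in WT and at 8.82, 8.14 and 8.84 in KO replicates 1, 2 and 3. The groups did not overlap, but the gap was only 0.05 and KO replicate 2 stood far below the other KO arrays. The difference was -0.38 ± 0.18 (adjusted p = 0.334) with that array and -0.15 without it.

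None of 4 further surface and matrix genes of progenitors passed the test. Pdgfra, the receptor through which PDGF drives progenitor division, ranged from 10.45 to 10.54 in WT and from 9.96 to 10.46 in KO. Its difference was -0.29 ± 0.12 (adjusted p = 0.290), and -0.16 without KO replicate 2, the lowest array. KO replicate 3 lay within the WT range. Cspg4, which encodes the NG2 proteoglycan, ranged from 7.54 to 7.57 in WT and from 7.32 to 7.62 in KO, a difference of -0.06 ± 0.09. Vcan, the matrix proteoglycan versican, ranged from 7.41 to 7.59 in WT and from 7.33 to 7.55 in KO, a difference of -0.08 ± 0.09, and -0.02 without KO replicate 2. All 3 of these genes had overlapping groups. Lhfpl3, a membrane protein enriched in progenitors, overlapped as well, from 8.68 to 8.85 in WT and from 8.50 to 8.68 in KO, with a difference of -0.18 ± 0.09, and -0.12 without KO replicate 2.

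The other transcription factors of this stage did not pass the test. Sox10, which stays on through all stages and drives myelin genes, was at 9.23, 9.13 and 9.24 in WT and at 9.17, 9.16 and 9.12 in KO. These ranges overlap, and the difference was -0.05 ± 0.07 (adjusted p = 0.801). Nkx2-2, a homeodomain factor of cells about to differentiate, differed by -0.30 ± 0.13 (adjusted p = 0.284), with levels from 6.46 to 6.91 in WT and from 6.26 to 6.55 in KO. Whether Olig2 and Sox10 differ from each other in their change was not tested.

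Newly formed oligodendrocytes gave the largest fall of the whole set. Gpr17, a G protein-coupled receptor present for a short time before myelination, was at 10.01, 10.25 and 10.16 in WT replicates 1, 2 and 3 and at 9.37, 9.43 and 9.21 in KO. The gap between the groups was 0.57, the widest of any member. Gpr17 fell by 0.80 ± 0.09, a 1.74-fold lower level (adjusted p = 0.0126). The adjusted p was 0.0893, 0.0644 and 0.0557 without WT replicate 2, WT replicate 3 and KO replicate 3, and 0.0475, 0.0384 and 0.00775 without WT replicate 1, KO replicate 1 and KO replicate 2.

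Enpp6, a choline phosphodiesterase that marks cells just starting to myelinate, was at 6.95, 7.06 and 6.74 in WT and at 6.49, 6.68 and 6.46 in KO. All KO arrays lay below WT by a gap of 0.07. The difference was -0.38 ± 0.10 (adjusted p = 0.120), and Enpp6 passed without KO replicate 2 (-0.44, adjusted p = 0.0462). Bmp4, a secreted ligand that steers progenitors away from differentiation and that newly formed cells also make, went the other way. It was at 7.02, 6.88 and 7.02 in WT and at 7.20, 7.03 and 7.45 in KO. The KO arrays were all higher, though replicate 2 only barely, and the difference was 0.25 ± 0.11 (adjusted p = 0.302). A list of meningeal and fibroblast genes, described below, had the same order of KO arrays. Its mean deviations were 0.52, 0.12 and 0.88 in KO replicates 1, 2 and 3, and a link to Bmp4 was not tested.

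**Figure D2:**
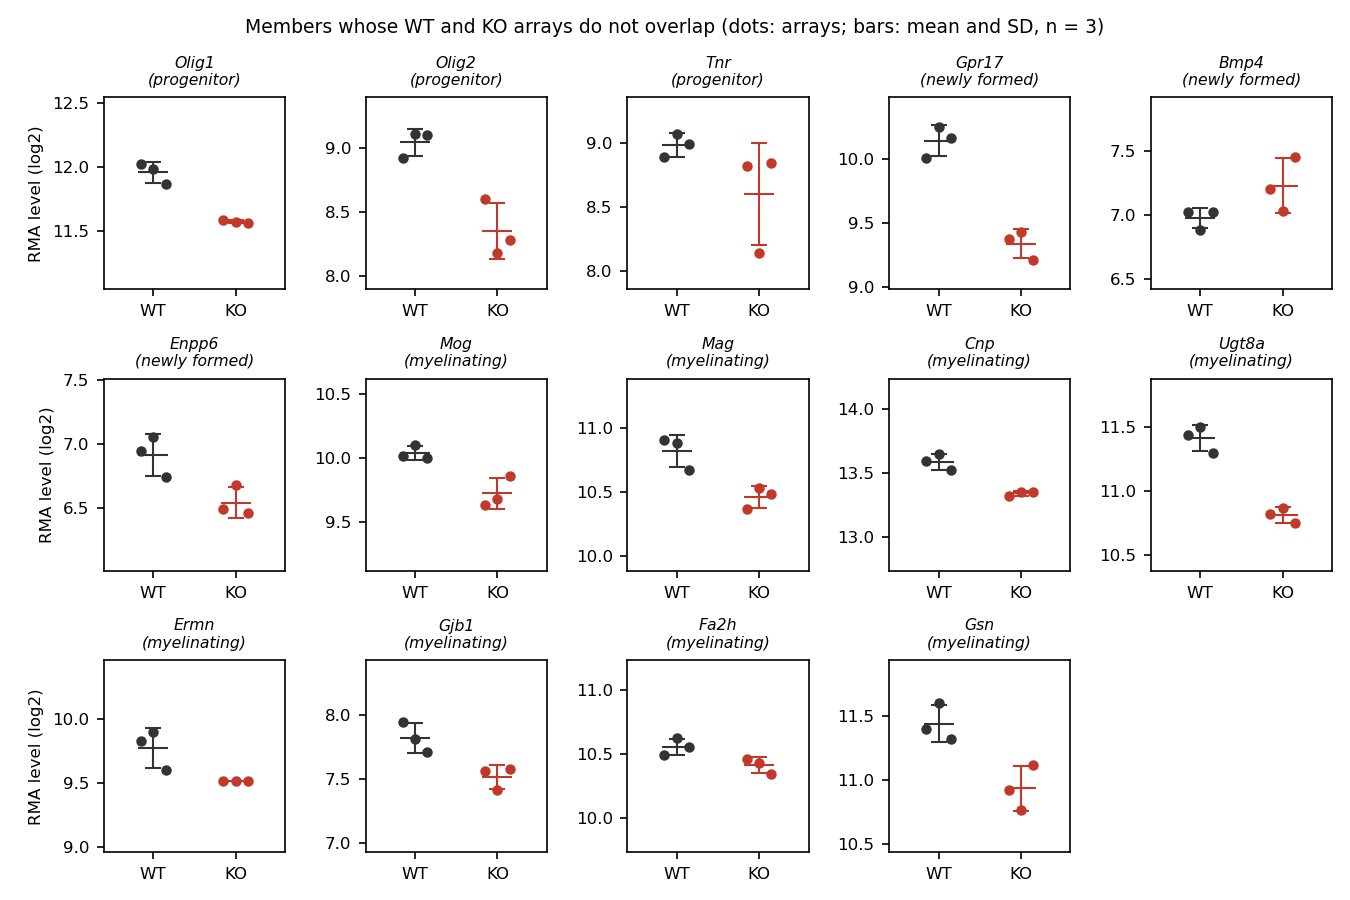
Levels in each array for the 14 members whose WT and KO arrays do not overlap, as RMA values on the log2 scale with bars for the mean and SD (n = 3), every panel spanning 1.5 log2 units. KO lies below WT in 13 panels and above it in 1, Bmp4. Gpr17 has the widest gap (0.57), and in Tnr 1 KO array lies far below the others.

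Of the 16 measured genes of myelinating cells 14 had a negative difference and 2 a positive one, with a median of -0.22, and 1 passed the test. Ugt8a encodes the ceramide galactosyltransferase that makes galactocerebroside, a main lipid of myelin. Its level was 11.44, 11.50 and 11.30 in WT replicates 1, 2 and 3 and 10.82, 10.87 and 10.75 in KO. The groups were separated by 0.43, and Ugt8a fell by 0.60 ± 0.08, a 1.52-fold lower level (adjusted p = 0.0174). Its second probe set differed by -0.70 ± 0.16 (adjusted p = 0.0805). The adjusted p of the first was 0.116, 0.123 and 0.0528 without WT replicates 1, 2 and 3, 0.0771 without KO replicate 3, just above the threshold without KO replicate 1, and 0.0119 without KO replicate 2.

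Fa2h, the fatty acid hydroxylase that supplies hydroxylated ceramide for the same lipids, did not pass the test. It was at 10.49, 10.62 and 10.55 in WT and at 10.46, 10.43 and 10.34 in KO. The gap was 0.03 and the difference -0.14 ± 0.08 (adjusted p = 0.391). Aspa, which cleaves N-acetylaspartate and so frees acetate for lipid synthesis, ranged from 8.27 to 8.55 in WT and from 8.24 to 8.40 in KO. These groups overlap, and the difference was -0.11 ± 0.09.

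Among genes of myelin membrane proteins Mbp, Mobp, Mal and Plekhb1 did not pass the test. Mbp, the myelin basic protein that holds the membrane layers together, was at 14.03, 14.10 and 13.97 in WT and at 13.87, 13.83 and 13.98 in KO. Only KO replicate 3 reached into the WT range, just above the lowest WT array, and the difference was -0.14 ± 0.08 (adjusted p = 0.414). Mobp, another small basic protein of compact myelin, ranged from 12.07 to 12.39 in WT and from 11.93 to 12.22 in KO, a difference of -0.20 ± 0.11. Mal, a raft proteolipid of myelin, ranged from 12.50 to 12.70 in WT and from 12.46 to 12.67 in KO, a difference of -0.04 ± 0.09. In both genes the highest KO array was replicate 3 and lay inside the WT range, and without KO replicate 2 the difference of Mal was 0.0012. Plekhb1, a membrane-bound protein with a pleckstrin homology domain, ranged from 11.52 to 11.66 in WT and from 11.45 to 11.65 in KO, a difference of -0.08 ± 0.09, and -0.05 without KO replicate 2.

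Mag, Mog and Cnp did not pass the test, though their reported probe sets had KO below WT on every array, as 12.8% of all named genes did. Mag, an adhesion protein facing the axon, was at 10.90, 10.88 and 10.67 in WT and at 10.36, 10.53 and 10.48 in KO, a difference of -0.36 ± 0.09 (adjusted p = 0.0967). Mog, on the outermost layer, was at 9.63, 9.68 and 9.86 in KO and at 10.01 and 10.10 in WT replicates 1 and 2, with WT replicate 3 just under replicate 1, a difference of -0.31 ± 0.08 (adjusted p = 0.117). Cnp, a phosphodiesterase that keeps cytoplasmic channels in myelin open, was at 13.59, 13.65 and 13.52 in WT and at 13.32, 13.35 and 13.35 in KO, a difference of -0.25 ± 0.07 (adjusted p = 0.130). The gaps between the groups were 0.14, 0.14 and 0.17, and 1 of the other Cnp probe sets had overlapping groups.

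Junction and cytoskeletal genes gave a mixed picture. Gjb1, a gap junction connexin, was at 7.94, 7.81 and 7.71 in WT and at 7.56, 7.41 and 7.58 in KO, and Cldn11, the tight junction protein of myelin, ranged from 10.97 to 11.14 in WT and from 10.47 to 11.03 in KO. Gjb1 differed by -0.30 ± 0.09 (adjusted p = 0.135) with separate groups, and Cldn11 by -0.24 ± 0.14 (adjusted p = 0.443) with overlapping groups and its lowest value in KO replicate 2, without which its difference was -0.08. Ermn, an actin-binding protein of late oligodendrocytes, was at 9.83, 9.90 and 9.60 in WT and at 9.52 on all 3 KO arrays. Its difference was -0.26 ± 0.09 (adjusted p = 0.206).

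Gsn encodes gelsolin, which severs actin and is also made by fibroblasts and other cells. It was at 11.40, 11.60 and 11.32 in WT and at 10.92, 10.77 and 11.12 in KO. The KO arrays were lower by a gap of 0.20, and the difference was -0.50 ± 0.11 (adjusted p = 0.0752). A second Gsn probe set differed by -0.46 ± 0.09 with an adjusted p of 0.0503. Opalin, a membrane glycoprotein of mature oligodendrocytes, and Myrf, the transcription factor that switches on myelin genes, had positive differences of 0.07 ± 0.10 and 0.03 ± 0.12. Opalin ranged from 9.71 to 9.99 in WT and from 9.90 to 10.02 in KO, and Myrf from 9.34 to 9.52 in WT and from 9.32 to 9.73 in KO. The groups overlapped in both genes, and the signs changed with 1 array: Opalin was -0.02 without WT replicate 3 and 0.05 without KO replicate 2, and Myrf was -0.01 without WT replicate 3, -0.10 without KO replicate 3 and 0.11 without KO replicate 2.

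Where a member had several probe sets, they agreed in most cases. Of 15 such members 10 had probe sets of 1 sign, and 5 of both signs: Cspg4, Sox10, Vcan, Mbp and Mobp. Over all 65 probe sets 52 had a negative difference, 23 had KO below WT on every array, and 3 passed the test as lower. Of all 45037 probe sets 11.6% had KO below WT and 0.884% passed as lower. All 6 probe sets of Gsn, all 3 of Cnp and both of Ugt8a, Ermn, Gjb1 and Enpp6 were negative. In Gjb1 and Ermn the probe set with the lower mean had the larger difference, -0.56 ± 0.13 (adjusted p = 0.0780) and -0.44 ± 0.11 (adjusted p = 0.0883). In Mbp 7 of 8 probe sets were negative, from -0.26 to -0.04, and 1 was at 0.16. In Vcan 4 of 8 were negative, the lowest at -0.41, and the highest was at 0.22. Mobp had 4 negative probe sets of 5, the lowest at -0.47 ± 0.18 (adjusted p = 0.246), and 1 positive, at 0.10. Sox10 had 2 of 3, the higher at 0.06, and Cspg4 had 1 of 2, at 0.02. The position of the probe sets within their transcripts was not analysed here.

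**Figure D3:**
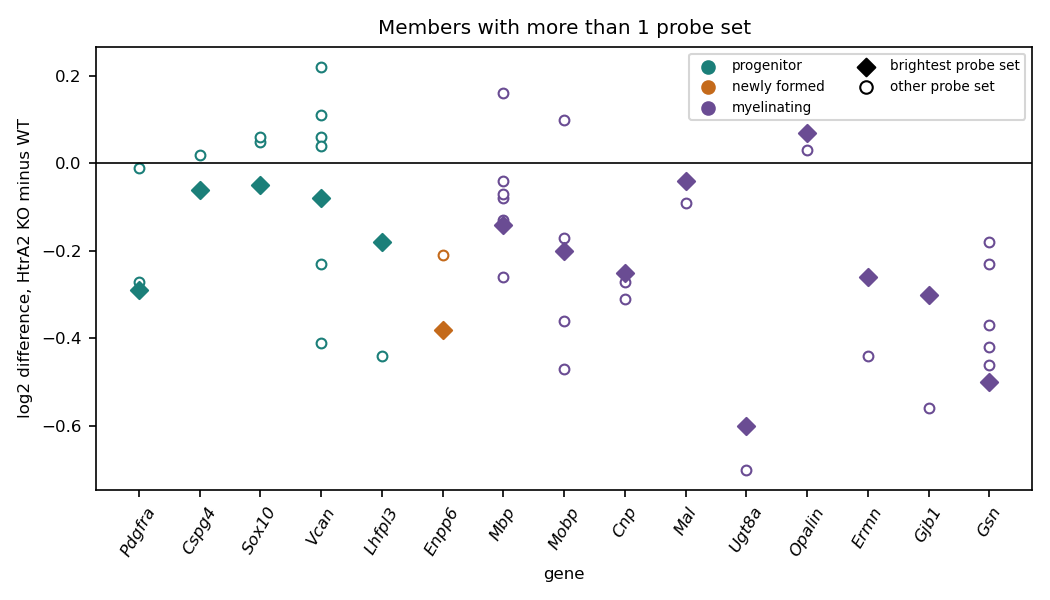
Difference between KO and WT (log2) at every probe set of the 15 members with more than 1, with the brightest probe set of each gene as a filled diamond. Both probe sets of Ugt8a lie at -0.60 or lower, all 6 of Gsn lie below 0, and those of Vcan spread from -0.41 to 0.22.

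All 3 stages had negative mean deviations on each KO array, of different sizes. The mean deviation from the WT mean over the progenitor genes was -0.21, -0.38 and -0.21 in KO replicates 1, 2 and 3, and lay between -0.06 and 0.04 in WT. Over the 3 newly formed cell genes it was -0.33, -0.30 and -0.30, against -0.04 to 0.05 in WT. Over the myelinating genes it was -0.24, -0.27 and -0.14, against -0.11 to 0.09 in WT, so KO replicate 3 lay close to the lowest WT array. Without KO replicate 2 the median difference was -0.15 for progenitor genes, -0.44 for newly formed cell genes and -0.16 for myelinating genes, and 5 members passed: Olig1, Olig2, Gpr17, Enpp6 and Ugt8a. Whether the shift differs between stages was not tested.

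The order of the WT arrays was much the same across the myelinating genes. WT replicate 2 had the highest WT level at 13 of the 16 myelinating genes and WT replicate 3 the lowest at 15. Among the 9 progenitor genes those counts were 4 and 2. WT replicate 2 also stood out for choroid plexus genes: Ttr, the transthyretin of choroid plexus, was at 12.86 there, against 8.46 and 8.62 in the other WT arrays and 7.32 to 7.61 in KO. The choroid plexus list of 8 genes had a mean deviation of 0.79 on that array and of -0.60 to -0.31 on the other 5. Without WT replicate 2 the median difference was -0.20 over all members and -0.16 over the myelinating genes, and no member passed limma. No member passed without WT replicate 3 or without KO replicate 3 either, and over the whole array 12, 24 and 20 named genes passed as lower without these 3 arrays.

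Markers of other cell types moved too. The KO arrays lay below every WT array at 7 of 10 neuron, 5 of 10 microglia and 5 of 10 astrocyte markers, and at 12.8% of all named genes. They lay above at 0, 0 and 3 of these markers. Of 10 vascular and 10 meningeal and fibroblast genes 0 and 0 had KO below WT. Of 10 neuron markers 2 fell, the neurofilament genes Nefh by 0.60 ± 0.08 and Nefm by 0.47 ± 0.07, and the list's mean deviation was -0.24 to -0.17 in KO and -0.01 to 0.02 in WT. Of 10 microglia markers 3 fell, Itgam by 0.72 ± 0.12, Tmem119 by 0.47 ± 0.08 and P2ry12 by 0.60 ± 0.11, with mean deviations of -0.37 to -0.28 in KO and -0.12 to 0.09 in WT. Of 10 astrocyte markers Gfap rose by 0.63 ± 0.09, and Aqp4 and S100b fell by 0.59 ± 0.09 and 0.58 ± 0.10. These markers passed the test, as 1.05% of all named genes did as lower and 1.39% as higher. The astrocyte list's mean deviation was -0.19 to 0.05 in KO and -0.01 to 0.02 in WT.

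Markers of tissue around the cortex were uneven between arrays. Of 10 meningeal and fibroblast genes all had a positive difference, led by Ogn at 0.91 ± 0.26 and Col3a1 at 0.59 ± 0.19, but none passed limma, with 6 at an unadjusted p under 0.05. Over these genes the arrays deviated by 0.52, 0.12 and 0.88 in KO replicates 1, 2 and 3 and -0.10 to 0.15 in WT. The vascular list had 0 of 10 past limma and 1 at an unadjusted p under 0.05, with Pecam1 at 0.29 ± 0.10 and Kcnj8 at 0.23 ± 0.12. Choroid plexus genes had 0 of 8 past limma and 3 at an unadjusted p under 0.05, with Calml4 at -0.89 ± 0.34 and Ttr at -2.56 ± 1.02.

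Genes of neighbouring regions and of peripheral myelin gave 1 call in all, a fall, where 1.05% of all named genes passed as lower. Striatal neuron genes had 0 of 6 past limma and 1 at an unadjusted p under 0.05, a median difference of 0.02, and Penk at -0.46 ± 0.15 and Rgs9 at 0.10 ± 0.08. Of 6 genes of hippocampal granule neurons Lct fell by 0.82 ± 0.10, while 4 had a positive difference, 3 of them at an unadjusted p under 0.05, the highest difference was 0.89 and the median 0.26. Choroid and striatal genes were both highest in WT replicate 2, where the striatal list deviated by 0.18. Of 4 Schwann cell genes none passed limma and 1 had an unadjusted p under 0.05, Egr2, which is also an activity-induced gene of neurons, at -1.45 ± 0.34, next to Ncmap at 0.26 ± 0.13. The part of tissue makeup in the oligodendrocyte differences was not tested.

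**Figure D4:**
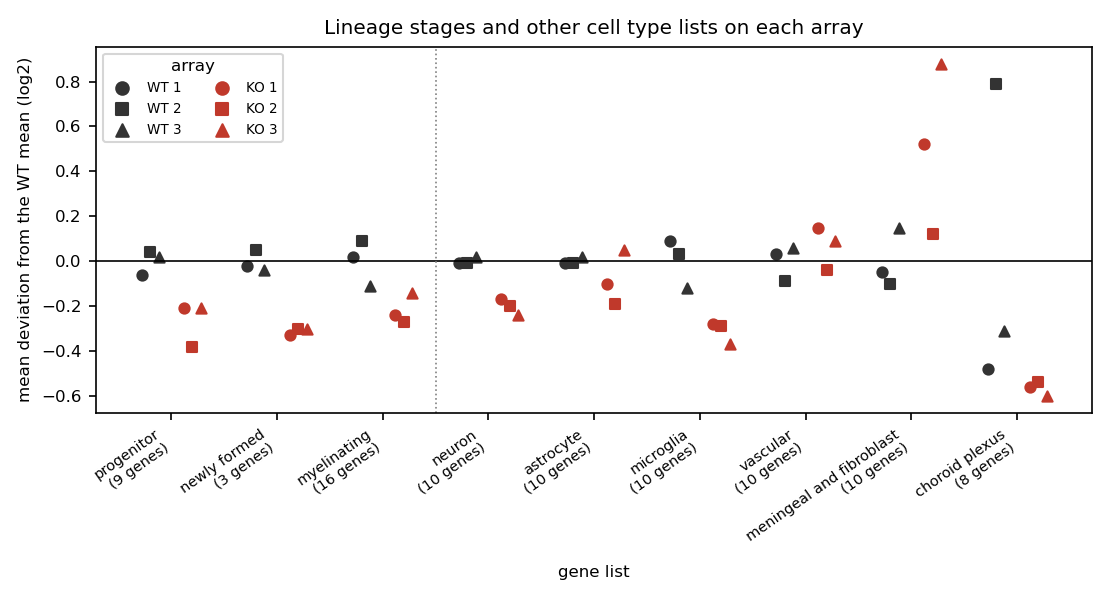
Mean deviation of each array from the WT mean (log2) over the 3 lineage stages and 6 lists of markers of other cells, WT in black and KO in red. The KO arrays lie below every WT array in all 3 stages and in the neuron, microglia and choroid plexus lists, KO replicates 1 and 3 are high for meningeal genes (0.52 and 0.88), and WT replicate 2 is high for choroid plexus genes (0.79).

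Further genes of the lineage, 100 measured genes that are not members, were read in the same fit. Of these 10 fell and none passed as higher in limma, where 1.05% of all named genes passed as lower and 1.39% as higher. These lists were drawn up with earlier results of these data known, so their counts are not independent of those results. Among 11 further progenitor genes none passed limma and 4 had an unadjusted p under 0.05, with Cacng4, a subunit that regulates AMPA receptors, at -0.26 ± 0.08 and the cell cycle gene Ccnd1 at -0.42 ± 0.14. Of 10 further genes of newly formed cells Bcas1, a marker of oligodendrocytes in active myelination, fell by 0.45 ± 0.09 (adjusted p = 0.0470), and the median was -0.28. Of 23 further myelin and mature cell genes Plxnb3, a semaphorin receptor, fell by 0.44 ± 0.08 (adjusted p = 0.0425), with a median of -0.12. KO lay below WT on all arrays at 7 of the 11, 7 of the 10 and 6 of the 23 genes. This held at 12.8% of all named genes and at 16.6% of those brighter than the median of all probe sets.

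Enzymes of myelin lipids had the most falls of the further lists. Of 21 measured enzymes 6 fell, among them the member Ugt8a, and the median was -0.15. Sqle, the squalene epoxidase of cholesterol synthesis, fell by 0.84 ± 0.08 (adjusted p = 0.00610), from 10.71, 10.73 and 10.76 in WT to 10.04, 9.84 and 9.81 in KO. Hmgcs1, an early enzyme of the same pathway, fell by 0.83 ± 0.09 (adjusted p = 0.00820), and Dhcr7, which acts at its end, by 0.58 ± 0.08 (adjusted p = 0.0162). Scd1, a fatty acid desaturase, fell by 0.77 ± 0.08 (adjusted p = 0.00809). The sterol and fatty acid enzymes are made in neurons and astrocytes as well.

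Signals that act on the lineage and regulators of differentiation gave 3 calls, all lower, where 1.05% of all named genes passed as lower. Of 21 ligands and receptors 2 fell, Erbb3, a neuregulin receptor of oligodendrocytes, by 0.55 ± 0.09 (adjusted p = 0.0283) and Lingo1, a neuronal and glial membrane protein that restrains myelination, by 0.40 ± 0.08 (adjusted p = 0.0473). Of 16 regulators of differentiation 1 fell, Hes5, a Notch target that keeps precursors undifferentiated and is also present in astrocytes, by 0.74 ± 0.10 (adjusted p = 0.0166). The medians of these lists were -0.12 and -0.05. Of the 10 falls outside the members, 0 were left without WT replicate 2, 2 and 1 without WT replicates 1 and 3, and 5 and 3 without KO replicates 1 and 3. Without KO replicate 2 all 10 were left, and 15 genes passed as lower.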

How the data were processed

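RNA of 6 cortex samples was hybridised to Affymetrix expression arrays after biotin labelling, per the labels' protocols. The deposited log2 values are RMA levels per probe set, per the submitters' processing notes, which name RMA with no version or settings. As a method RMA corrects background, normalizes quantiles and summarizes probes. No source used here names the log base, and the range of the values set it at 2. Quantile normalization hides a change shared by most genes. Array medians were 6.40 to 6.45, and the number of arrays limits the precision.

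After leaving out 64 control probe sets, 45037 were fitted with limma 3.58.1 (R 4.3.3, lmFit and eBayes, two-sided, group as the only term, Benjamini-Hochberg adjustment). The platform annotation names 1 gene for 34945 probe sets, several for 932 and none for 9160; current symbols came from RefSeq (GRCm38.p6) for the 34741 probe sets whose gene identifier it holds. A gene's probe set with the highest mean represents it. The fit was tested on simulated data. All members were named, other genes by list: those past the test, up to 4 by smallest p, or 2 where none passed. Ugt8a and Fa2h also stand in the lipid enzyme list. The members and lists were chosen with earlier results of these data known. The alternatives were leaving out arrays, a replicate block, dropping dim probe sets, robust limma-trend, a further quantile step, median centring, array weights, a Y-linked covariate, a looser threshold and other probe set rules. The labels do not pair same-numbered WT and KO arrays, so no block was used in the main fit. Such arrays did not deviate together, which does not exclude a pairing.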

Additional observations from a re-analysis of the deposited data

How the results depend on the processing

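The direction of the shift held more widely than the calls. A replicate block, dropping dim probe sets and limma-trend leave each fitted difference as it was, so those runs bear on the calls only. In every run that could change it, the median over all members stayed negative, from -0.28 to -0.16 when 1 array was left out. It was -0.12 without both replicates numbered 2, an omission chosen after the values were seen. In that omission the medians were -0.11 for progenitor and -0.11 for myelinating genes, 1 member and 1 member probe set passed, 3 further lineage genes did, and Mal changed sign to 0.06. Leaving out 1 array gave medians of -0.29 to -0.15, -0.46 to -0.31 and -0.28 to -0.16 for progenitor, newly formed and myelinating genes, 0 to 5 members past the test, 0 to 7 member probe sets, 0 to 15 further genes and 13 to 20 members with KO below WT on all arrays kept, where 15.2% to 21.1% of all named genes were, against 12.8% with 6 arrays. Over all named genes those omissions left 12 to 450 genes lower, against 191 with all arrays, the highest count being without KO replicate 2. The differences of Mal then ran from -0.11 to 0.01, of Opalin from -0.02 to 0.12, of Myrf from -0.10 to 0.11 and of Cspg4 from -0.13 to 0.02.

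With a replicate block 1 member (Gpr17), 1 member probe set and 3 further genes passed, with 0.187% of named genes lower. The correlations of same-numbered deviations were -0.20, -0.04 and -0.17. With 3 arrays per group such correlations cannot exclude a pairing, for instance by litter, and the labels state none. More members passed as lower when dim probe sets were dropped (6, and 9 probe sets; 3.60% of named genes), with limma-trend (7 and 11; 2.39%), further quantile normalization (4, and 5 probe sets; 1.34%), array weights (9 and 15; 4.31%, with 22 further genes and medians of -0.20 for progenitor and -0.48 for newly formed cell genes; Bmp4 passed as higher) and an adjusted p under 0.10 (6, with 16 further genes; 2.59%). The array weights were 2.62 for WT replicate 2, 0.25 for KO replicate 2 and 0.89 to 1.32 for the other arrays. With the Y-linked covariate 2 members and 5 further genes passed (0.577%). The mean of all probe sets of a gene gave -0.29 for newly formed cell genes and 0.02 for Sox10. The cause of these changes was not tested. Median centring left the 3 members called.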
